A study of Mus musculus with 21 samples.

Results

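Immune checkpoint genes were examined in mammary tumours of mice of the MMTV-PyMT genotype. They comprised 5 inhibitory receptors of lymphocytes (Pdcd1, Ctla4, Lag3, Havcr2 and Tigit) and 4 ligands (Cd274, Pdcd1lg2, Cd80 and Cd86), chosen by symbol from the 19241 genes listed for the tumours, and all 9 were found. The tumours were 12 of the 21 libraries of the study, in 4 groups of 3: sedentary and physically active mice at week 12, and sedentary and physically active mice at week 18. All 4 groups carried the MMTV-PyMT transgene, in which the promoter of mouse mammary tumour virus drives the polyomavirus middle T antigen, mainly in mammary epithelium, so no tumour-free tissue served as a control. The labels do not state the kind of activity, the event from which weeks are counted, or how many animals gave each library. They call the 3 libraries of a group biological replicates.

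Whole tumour RNA was sequenced from polyadenylated transcripts, and each library held 20838963 to 28973775 reads assigned to genes. Values are normalized counts, which are gene counts divided by 1 size factor per library. Epithelial markers (Epcam, Krt8, Krt18, Krt5, Krt14 and Cdh1) were read in every tumour, with a sum of 42479.5 to 119723 normalized counts. Active replicate 3 of week 12 stood apart from the other 11 tumours. It had the lowest of these epithelial sums, against 68587.7 or more elsewhere, and was the highest of the 12 tumours for 25.1% of the 16462 genes with a mean of at least 10 normalized counts. Results are therefore given with and without it. In bulk tissue, fewer cells of a type and less RNA per cell cannot be told apart.

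Immune checkpoints are receptor and ligand pairs that restrain lymphocytes after activation. Pdcd1 encodes PD-1, which recruits the phosphatase Shp2 and binds the products of Cd274 (PD-L1) and Pdcd1lg2 (PD-L2). Ctla4 encodes CTLA-4, carried above all by regulatory T cells, which competes with the costimulatory receptor CD28 for the products of Cd80 and Cd86 on antigen-presenting cells. Lag3 encodes a relative of CD4 that binds MHC class II. Havcr2 encodes TIM-3, found on exhausted and cytotoxic T cells but also on macrophages and dendritic cells, and Tigit encodes a receptor of T and natural killer cells for nectins and the poliovirus receptor. Cd274 is induced by interferon gamma in many cell types, tumour cells included, whereas Pdcd1lg2 is more restricted to dendritic cells and macrophages.

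The genes lie on 5 chromosomes of the GRCm38 build, each as a protein-coding gene of GENCODE. Pdcd1 (chr1:94038305-94052553, minus strand) and Ctla4 (chr1:60887000-60915832, plus strand) share chromosome 1, and Lag3 (chr6:124904361-124911705, minus strand) and Havcr2 (chr11:46454935-46481255, plus strand) stand alone. Tigit (chr16:43648867-43664146, minus strand), Cd80 (chr16:38455561-38496335, plus strand) and Cd86 (chr16:36603869-36666081, minus strand) share chromosome 16. Both PD-1 ligands lie in tandem on the plus strand, Cd274 at chr19:29367455-29388095 and Pdcd1lg2 at chr19:29410919-29471161, with 22823 bases between them. An antisense gene, AC119228.1, shares 511 exon bases with Cd274, which is 14.1% of its exons. Whether strand was used in counting is not given in the sources used here, so reads of that pair cannot be told apart over these bases.

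RefSeq start sites (build GRCm38.p6) were matched for 7 of the 9 genes. Cd86 and Lag3 were not matched. The 250 bases before the start are printed for Ctla4 and Pdcd1lg2, the receptor and the ligand whose highest tumour was farthest above the median of the others, and for Havcr2, the gene with the smallest such gap. Each reads 5′ to 3′ on the gene's own strand, here the plus strand, and capitals mark the motifs named after the sequences. The windows are chr1:60908775-60909024, which lies within an intron of a longer Ctla4 transcript, chr19:29410669-29410918 for Pdcd1lg2 and chr11:46454681-46454930 for Havcr2.
Ctla4: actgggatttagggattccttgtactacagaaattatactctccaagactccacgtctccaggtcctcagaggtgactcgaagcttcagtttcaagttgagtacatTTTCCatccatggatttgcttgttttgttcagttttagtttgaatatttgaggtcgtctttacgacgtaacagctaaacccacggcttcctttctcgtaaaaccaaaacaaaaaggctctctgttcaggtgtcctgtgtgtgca
Pdcd1lg2: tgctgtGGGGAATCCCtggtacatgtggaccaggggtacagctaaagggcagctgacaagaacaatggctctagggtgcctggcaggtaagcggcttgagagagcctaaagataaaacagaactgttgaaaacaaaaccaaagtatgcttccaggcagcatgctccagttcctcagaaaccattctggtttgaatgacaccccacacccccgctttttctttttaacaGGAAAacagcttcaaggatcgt
Havcr2: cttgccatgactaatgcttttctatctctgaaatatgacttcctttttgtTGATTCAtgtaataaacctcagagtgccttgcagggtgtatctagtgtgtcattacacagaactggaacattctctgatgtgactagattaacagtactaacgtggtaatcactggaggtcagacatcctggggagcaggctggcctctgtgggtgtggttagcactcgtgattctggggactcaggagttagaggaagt

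Both strands were searched for 6 motifs: the interferon gamma element GAS (TTCNNNGAA), the core of the interferon element ISRE (GAAANNGAAA), the TATA box (TATAAA), the NFAT core (GGAAA), an NF-kB site by name, and AP-1 (TGANTCA). The NFAT core, the shortest of them, was present in the windows of Pdcd1, Ctla4, Tigit, Cd274 and Pdcd1lg2, and in 55.6% of the 32851 mouse promoters of the same length. The NF-kB letters occurred once, at -244 from the start of Pdcd1lg2, and in 7.25% of all promoters. The AP-1 letters occurred in Havcr2 and Cd80, and in 6.75% of all promoters. GAS, the ISRE core and the TATA box were in none of the 7 windows, against 7.02%, 2.98% and 12.4% of all promoters. These matches describe letters only.

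Levels between genes were compared per kilobase of exon. Havcr2 was read most, with a median of 44.4 normalized counts per kb over the 12 tumours, followed by Cd86 at 35.9, Cd274 at 33.0 and Lag3 at 20.7. Pdcd1 (10.7), Tigit (9.68) and Cd80 (6.07) were lower, and Ctla4 (2.97) and Pdcd1lg2 (1.33) were at the edge of detection. The median tumour held 7.5 reads of Ctla4 and 2.5 reads of Pdcd1lg2, so both genes carry large counting error, and 128 reads of Havcr2. The least-read receptor and the least-read ligand were also the genes with the highest ratio of active replicate 3 of week 12 to the median of the rest.

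**Figure D1:**
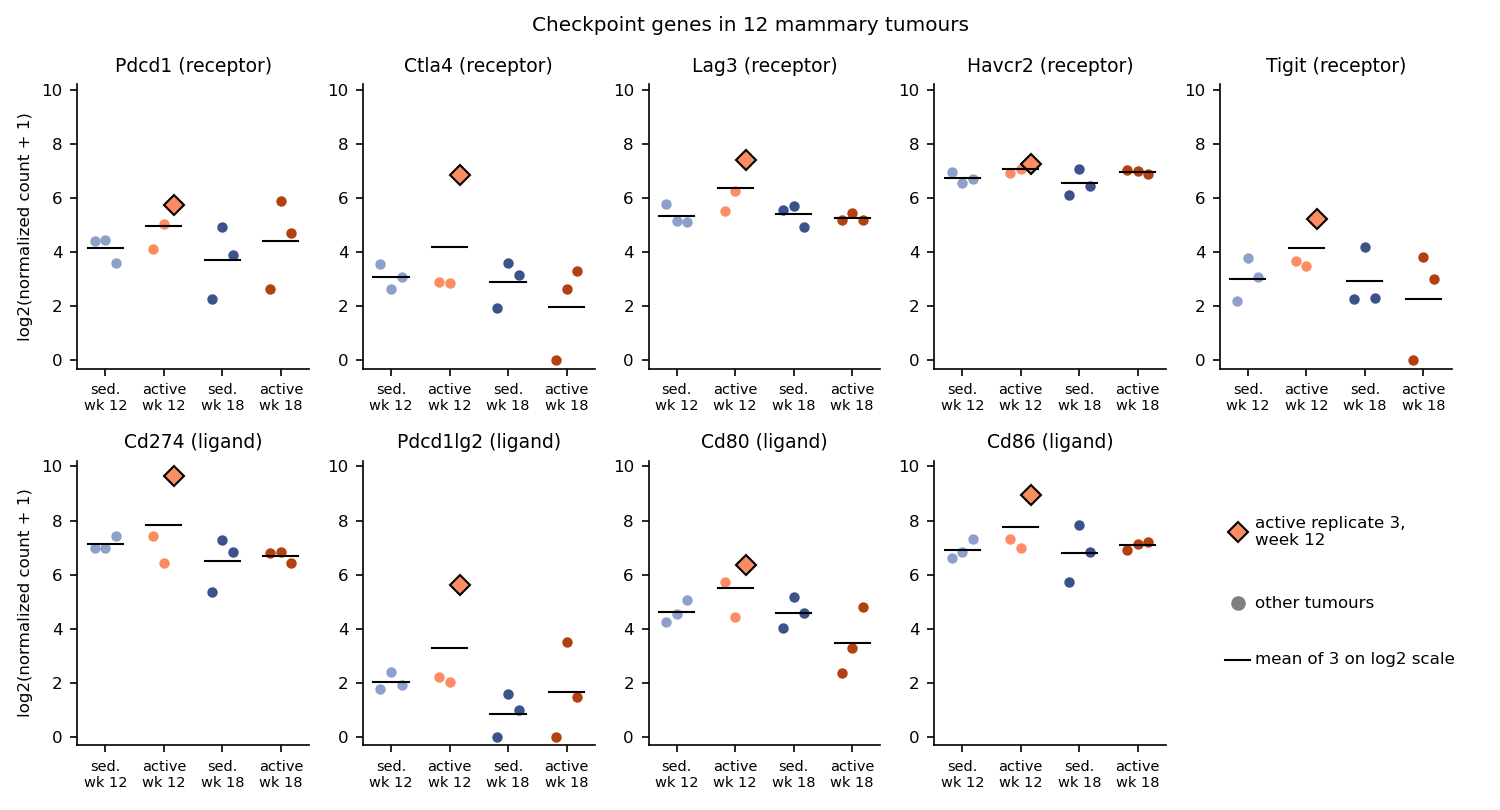
Level of each checkpoint gene in each of the 12 tumours, as log2(normalized count + 1), by activity group and week, with a bar for the mean of 3. The diamond is active replicate 3 of week 12, the highest point in 8 of the 9 panels, and Pdcd1 is the exception.

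Among the receptors, Ctla4 showed the widest gap. It had 10.8, 5.27 and 7.49 normalized counts in the sedentary tumours of week 12 and 6.38, 6.18 and 116 in the active ones, then 2.87, 11.1 and 7.93 in sedentary and 0, 5.25 and 8.91 in active tumours of week 18. The count of 0 in active replicate 1 of week 18 allows up to 3.12 normalized counts (3 reads, for counting error only). A single tumour, active replicate 3 of week 12, lay 18.2 times above the median of the other 11, and the other 11 ranged from 0 to 11.1 with no group apart. Tigit had a smaller gap between that tumour and the rest. It measured 3.60, 12.6 and 7.49 in sedentary and 11.8, 10.3 and 36.8 in active tumours of week 12, and 3.83, 17.2 and 3.97 against 0, 13.1 and 7.13 in week 18. The highest tumour was again active replicate 3 of week 12, at 4.92 times the median of the others, and the groups overlapped at both weeks.

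Lag3 had 54.0, 34.8 and 33.7 normalized counts in sedentary and 44.6, 75.2 and 167 in active tumours of week 12. In week 18 it had 46.0, 51.6 and 29.7 in sedentary and 35.4, 42.8 and 35.7 in active tumours, so the active tumours of week 18 lay below all 3 active tumours of week 12. The nearest values of these groups, 42.8 and 44.6, were 49 reads each and differed only by the size factors. Active replicate 3 of week 12 was 3.90 times the median of the others, and active replicate 2 of that week was second. Pdcd1 spread as widely within a group as between groups, with 20.4, 21.1 and 11.2 in sedentary and 16.4, 31.9 and 52.4 in active tumours of week 12. Its week 18 values were 3.83, 29.3 and 13.9 in sedentary and 5.20, 57.7 and 25.0 in active tumours. Here the highest tumour was active replicate 2 of week 18, and active replicate 3 of week 12 came second, at 2.57 times the median of the others. Within week 18, replicate 1 was lowest and replicate 2 highest in both activity groups.

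Havcr2 varied least. It measured 122, 93.8 and 104 normalized counts in sedentary and 119, 134 and 153 in active tumours of week 12, and 68.0, 136 and 86.2 against 131, 128 and 118 in week 18. Active replicate 3 of week 12 was the highest here too, yet only 1.28 times the median of the others. Sedentary tumours of week 18 averaged 96.6 ± 35.0 (SD, n = 3) and active ones 125 ± 6.97 (SD, n = 3), so the spread was wider in the sedentary group.

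The ligands also peaked in that tumour. Cd274 had 127, 124 and 171 normalized counts in sedentary and 172, 84.5 and 794 in active tumours of week 12, and 40.2, 153 and 113 against 110, 115 and 84.7 in week 18. The value of 794 was 6.93 times the median of the others, and the other 2 active tumours of week 12 lay on either side of the sedentary range. Pdcd1lg2 had 2.40, 4.22 and 2.81 in sedentary and 3.64, 3.09 and 48.0 in active tumours of week 12, and 0, 2.02 and 0.991 against 0, 10.5 and 1.78 in week 18. The value of 48.0 rests on 43 reads, while no other tumour had more than 12, and it was 20.0 times the median of the others and 4.57 times the next highest tumour. All 3 sedentary tumours of week 18 were at or below 3 reads.

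Cd86, the more abundant ligand of CD28 and CTLA-4, had 97.2, 114 and 157 normalized counts in sedentary and 159, 125 and 491 in active tumours of week 12. In week 18 it had 51.7, 225 and 112 in sedentary and 119, 138 and 147 in active tumours. Cd80, its partner, had 18.0, 22.1 and 32.7 against 51.9, 20.6 and 81.4 in week 12, and 15.3, 35.4 and 22.8 against 4.16, 8.74 and 26.7 in week 18. Active replicate 3 of week 12 was 3.94 times the median of the others for Cd86 and 3.68 times for Cd80. For Cd80 the next tumour, active replicate 1 of the same week, stood above the remaining 10, and the lowest 2 tumours of all were active replicates 1 and 2 of week 18. Sedentary replicate 1 of week 18 was the lowest tumour for 4 of the 9 genes and active replicate 1 of week 18 for 3.

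Markers of T cells, B cells and lymph node stood further above the other tumours in active replicate 3 of week 12 than the checkpoint genes did. The 9 T cell markers (Cd3d, Cd3e, Cd3g, Cd247, Cd4, Cd8a, Cd8b1, Trac and Lck) were all highest there, with a median of 45.2 times the median of the other tumours, and summed to 13139.5 normalized counts against 223 to 469 elsewhere. All 5 B cell markers were highest there, summing to 17011.2 against 25.8 to 133, and so were all 7 markers of lymph node stroma and follicles, such as the chemokine gene Ccl21a and the complement receptor gene Cr2, summing to 19791.2 against 44.3 to 428. All 8 dendritic cell markers were highest there, with a median of 9.94 times the others, and so were all 5 adipocyte markers, with a median of 20.1 times. Of the natural killer cell markers 4 of 6 were highest there, with a median of 4.59 times, and of the neutrophil markers 2 of 4, with 3.07 times. Macrophage markers were closer to the others, with 2 of 9 highest there, a median of 1.02 times the others and a sum of 17780.7, within the 8698.08 to 18290.4 of the other tumours. None of the T cell, B cell, stromal or dendritic markers was at 0 in all libraries of a group. The part of these cells in the level of the checkpoint genes was not tested.

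**Figure D2:**
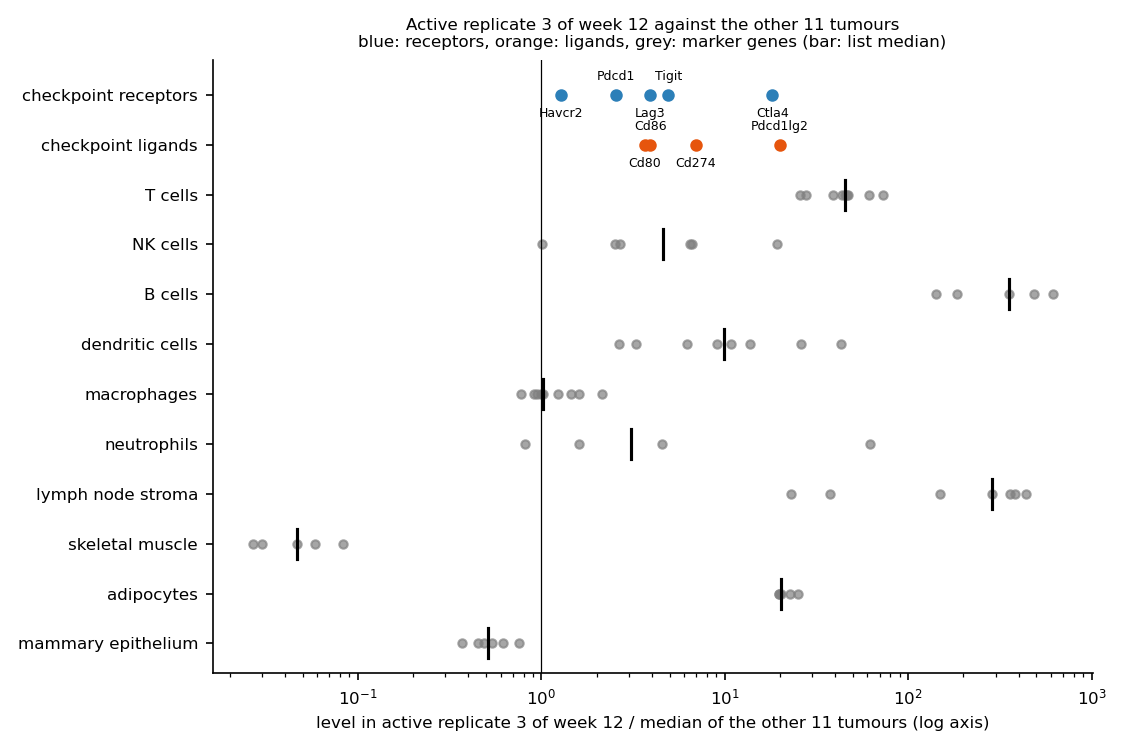
Level of each gene in active replicate 3 of week 12 divided by the median of the other 11 tumours, on a log axis, for the 5 receptors, the 4 ligands and 10 marker lists, with a bar at each list's median. Havcr2 sits near 1 beside the macrophage markers, and Ctla4 and Pdcd1lg2 lie near 20, below most T cell, B cell and lymph node markers.

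Receptor levels did not keep pace with T cell transcripts in that tumour. The sum of Cd3d, Cd3e and Cd3g, the invariant chains of the T cell receptor complex, was 3091 normalized counts there and 26.0 to 107 in the other 11. Per 100 of these CD3 counts, Lag3 stood at 5.41 in active replicate 3 of week 12 and at 34.0 to 136 in the others, Havcr2 at 4.94 against 91.8 to 504, and Pdcd1 at 1.70 against 9.30 to 58.9. These 3 receptors were thus below all 11 other tumours. Ctla4 stood at 3.75 against 0 to 19.1, with a median of 7.14, and Tigit at 1.19 against 0 to 16.0, with a median of 11.2. Both were below every tumour but active replicate 1 of week 18, which held 0 reads of either. Relative to the median of the others, Ctla4 was the receptor closest to the CD3 level. A ratio of this kind says nothing of which cells hold a transcript, and Havcr2 is known to be expressed by macrophages as well.

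The balance of receptors and ligands leaned furthest to ligands in the same tumour. Summed per kb, the 5 receptors reached 252 normalized counts in active replicate 3 of week 12 and 54.2 to 115 in the others, and the 4 ligands 400 against 29.4 to 114. The ratio of receptors to ligands was 0.632 there, below the 0.710 to 1.84 of the other 11 tumours. The make-up of the receptor sum differed too. Havcr2 made up 22.2% of the receptor sum there and 41.3% to 71.2% elsewhere, whereas Cd274 and Cd86 together made up 88.4% of the ligand sum, within the 85.1% to 98.2% of the others. On the log2 scale the ratio averaged 0.00 ± 0.46 (SD, n = 3) in sedentary and -0.03 ± 0.78 (SD, n = 3) in active tumours of week 12, and 0.23 ± 0.57 (SD, n = 3) and 0.29 ± 0.24 (SD, n = 3) in week 18, so the groups differed by less than their spread. Without active replicate 3 the active tumours of week 12 averaged 0.29, which turned the sign.

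**Figure D3:**
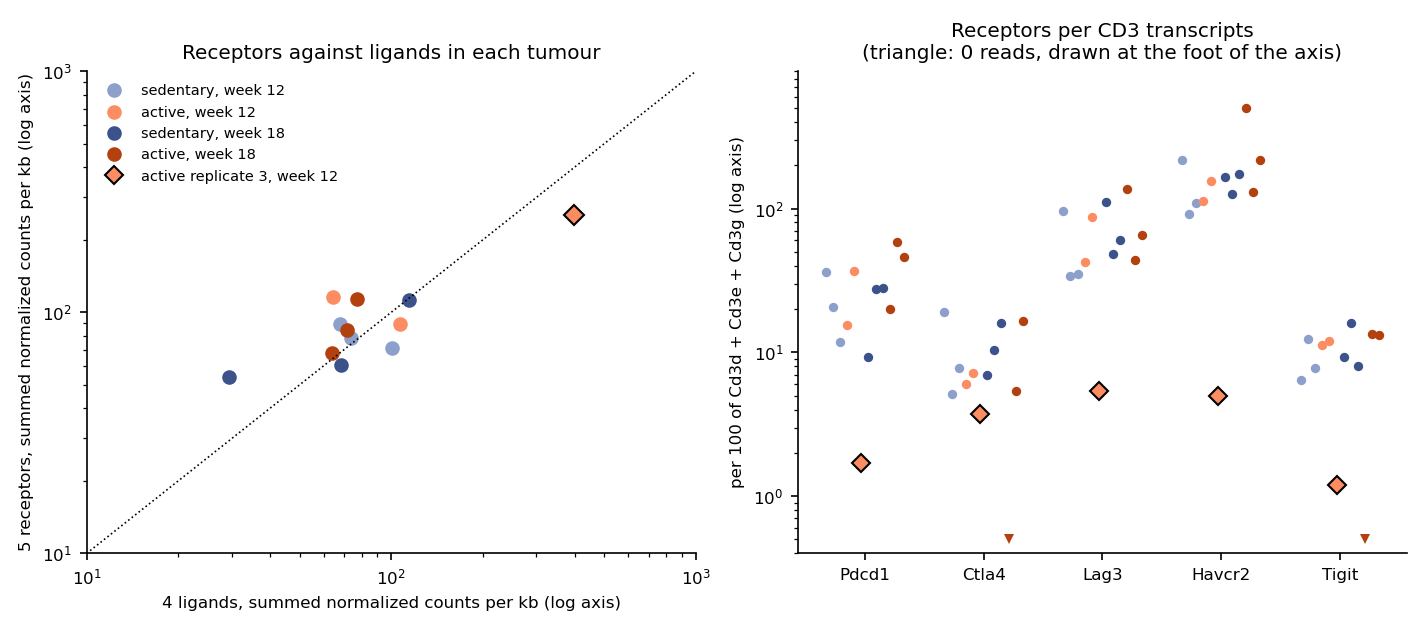
Left, the summed level of the 5 receptors against that of the 4 ligands in each tumour, both in normalized counts per kb on log axes, with a dotted line where they are equal. Right, each receptor per 100 normalized counts of CD3 transcripts on a log axis, where active replicate 3 of week 12 (diamond) is below all other tumours for Pdcd1, Lag3 and Havcr2.

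The first comparison asked whether the checkpoint genes differed between active and sedentary mice at week 12. None of the 9 passed the test (limma on log2(value + 1), Benjamini-Hochberg adjustment over all genes, threshold 0.05), against 99 of 19162 genes, which is 0.517%. None was under an unadjusted p of 0.05 either, against 4.09% of all genes, and none had groups that did not overlap, against 9.13% of all genes. By edgeR's quasi-likelihood test and by DESeq2 on the recovered reads none of the 9 passed. All 9 estimates were above 0, with a median of 0.89 on the log2 scale against 0.01 over all genes, and the adjusted p from limma was 0.970 for each. The smallest unadjusted p belonged to Lag3, with a log2 fold change of 1.03 (SE 0.52). The widest interval belonged to Ctla4, at 1.10 with a 95% interval of -1.84 to 4.04.

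Those estimates rested largely on 1 tumour. Without active replicate 3 of week 12 the median of the 9 was 0.25, that of the receptors 0.42 in place of 1.03, and that of the ligands 0.16 in place of 0.86. Ctla4 went from 1.10 to -0.23 and Cd274 from 0.70 to -0.21, which turned their direction, and Pdcd1lg2 went from 1.26 to 0.10 and Cd86 from 0.82 to 0.22. The estimates of Tigit (0.57), Lag3 (0.53), Cd80 (0.46), Pdcd1 (0.42) and Havcr2 (0.25) were also smaller, and Havcr2 moved least, from 0.34. The adjusted p was 1.00 for each of the 9 in that fit of 2 against 3 tumours. Skeletal muscle markers also parted the week 12 groups, with a summed level of 41584.1 to 92809.6 normalized counts in sedentary tumours and 226 to 947 in active ones, and all 5 of 5 were past the threshold by limma, with a median log2 fold change of -7.43. Without active replicate 3 none of the 5 passed, at a median of -7.17. The part of admixed muscle in the checkpoint values was not tested.

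**Figure D4:**
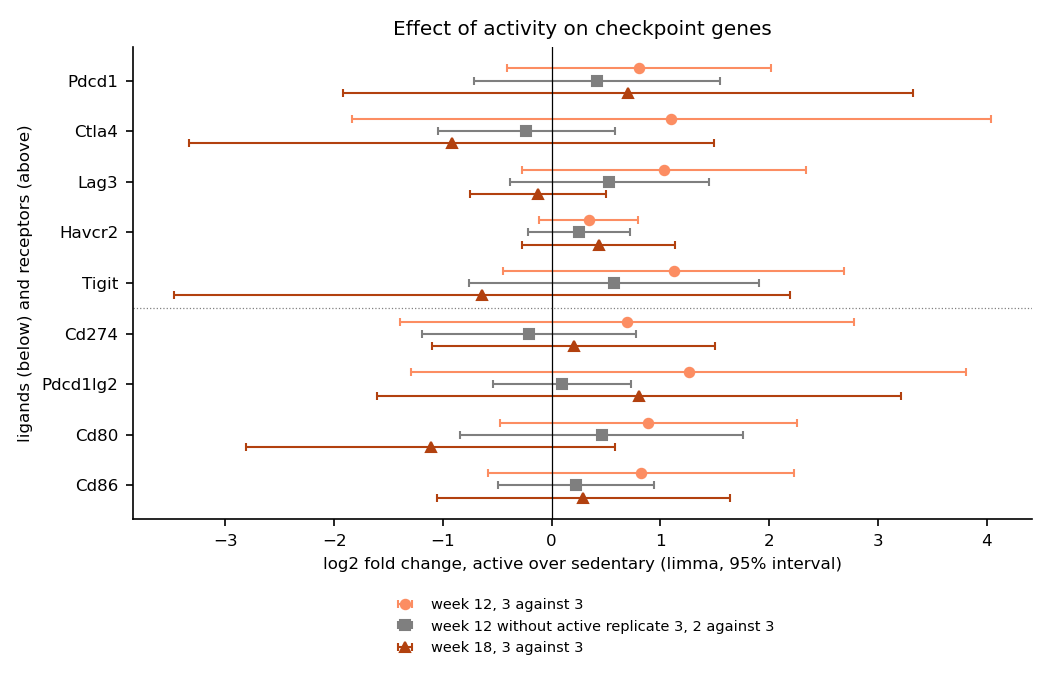
Log2 fold change of each checkpoint gene in active over sedentary tumours, with 95% intervals from limma, at week 12 (circles), at week 12 without active replicate 3 (squares) and at week 18 (triangles). Every interval spans 0, and at week 12 the estimates lie closer to 0 without that tumour.

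At week 18 none of the 9 genes passed limma's test either, and neither did any of the 18939 genes tested (0%), whereas over all genes edgeR called 0 and DESeq2 52. Without a block, none of the 9 was under an unadjusted p of 0.05, against 5.97% of all genes, and none had groups apart, against 13.6%. The labels do not state pairs of tumours. With the replicate number as a block 1 of the 9 was under an unadjusted p of 0.05, against 7.41% of all genes. It was Pdcd1, higher in the active tumour for each of the 3 replicate numbers (log2 fold change 0.71, adjusted p = 0.625 by limma with the block and 0.886 without). For replicate 1 this was 5 reads in the active and 4 in the sedentary tumour, a gap within counting error. Of the receptors, Pdcd1 (0.71) and Havcr2 (0.43) had estimates above 0 and Ctla4 (-0.92), Tigit (-0.64) and Lag3 (-0.13) below. Of the ligands, Pdcd1lg2 (0.80), Cd86 (0.29) and Cd274 (0.20) were above 0 and Cd80 (-1.11, SE 0.68) was below. The median over the 9 was 0.20 on the log2 scale, against 0.01 over all genes. Adjusted p-values from limma ran from 0.824 to 0.937. Lag3 was bounded most tightly, with a 95% interval of -0.75 to 0.50. Pdcd1lg2 had 14 reads in active and 3 in sedentary tumours of that week, a ratio of 4.40 after scaling with a 95% interval of 1.23 to 23.9 that covers counting error only, and 12 of the 14 reads came from 1 tumour.

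The difference between the activity effects of the weeks was tested directly over all 12 tumours. None of the 9 genes passed, against 2 of 19241 genes (0.0104%), and none was under an unadjusted p of 0.05, against 6.33% of all genes. The nearest was Cd80, whose effect was lower at week 18 than at week 12 by 2.00 on the log2 scale (estimate -2.00, SE 0.93, adjusted p = 0.770 by limma). Lag3 followed at -1.16 (SE 0.60). Without active replicate 3 of week 12 these values were -1.57 for Cd80 and -0.66 for Lag3.

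Week 18 against week 12 was then compared within each activity group, in the same fit of 12 tumours. In sedentary mice none of the 9 genes passed (1 of 19241 genes did, 0.0052%) and none was under an unadjusted p of 0.05 (3.64% of all genes). Only Pdcd1lg2 had groups apart, lower at week 18, against 5.95% of all genes apart in that direction, at a log2 fold change of -1.16 (SE 1.06). Those tumours held 2, 4 and 3 reads at week 12 and 0, 2 and 1 at week 18, so the nearest values of the weeks, 2.40 and 2.02 normalized counts, were 2 reads each and differed only by the size factors. In active mice none of the 9 passed by limma (3 of 19241 genes did, 0.0156%), but all 9 estimates were below 0, with a median of -1.14 against -0.03 over all genes. Cd80 and Lag3 were under an unadjusted p of 0.05, as were 17.7% of all genes. Cd80 stood at -2.03 (SE 0.65, adjusted p = 0.210 by limma) and Lag3 at -1.11 (SE 0.43, adjusted p = 0.243 by limma). Lag3 was the 1 gene of the 9 whose groups did not overlap, lower at week 18, as in 12.7% of all genes. Its nearest values of the weeks, 44.6 and 42.8 normalized counts, were 49 reads each and differed only by the size factors.

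Cell markers moved with the same comparison in active mice. Markers of T cells had a median log2 fold change of -2.34 at week 18 against week 12, and -0.51 without active replicate 3 of week 12. B cell markers stood at -3.88 (-1.20 without it), those of lymph node stroma at -3.54 (-1.05), those of dendritic cells at -1.95 (-0.85), and macrophage markers at 0.02 (-0.01). Adipocyte markers had a median of -5.10, and -3.95 without that tumour, with a summed level of 5724 to 138540 normalized counts at week 12 and 352 to 1597 at week 18. Skeletal muscle markers went the other way, at 3.65 (3.53 without it), with sums of 226 to 947 at week 12 and 968 to 11172 at week 18. No marker of these lists passed limma's adjusted threshold. All 5 adipocyte and all 5 muscle markers were under an unadjusted p of 0.05, against 17.7% of all genes. So were 3 of 9 T cell, 2 of 5 B cell and 1 of 7 lymph node stroma markers, and no dendritic cell or macrophage marker. The part of these cell types in the values of the checkpoint genes was not tested.

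Of the estimates in active mice, those of Ctla4 (-2.22), Tigit (-1.86), Pdcd1lg2 (-1.62) and Cd274 (-1.14) were large with wide intervals, and each moved by more than 1.5 times with 1 library left out. Without active replicate 1 of week 18 Tigit stood at -0.72 and Ctla4 at -1.22, and without active replicate 2 of week 12 Cd274 stood at -1.85. Pdcd1lg2 stood at -2.55 without active replicate 2 of week 18 and -0.46 without active replicate 3 of week 12. Without active replicate 3 of week 12 all 9 were still below 0, with a median of -0.46. Cd80 was then at -1.60 and Lag3 at -0.60, Cd274 at -0.24 and Ctla4 at -0.88, with adjusted p-values from limma of 0.466, 0.517, 0.888 and 0.725. Ordered by group mean, active tumours of week 12 came first for all 9 genes. Without active replicate 3 they came first for 5 of the 9. Active tumours of week 18 then led for Pdcd1 (29.3 against 24.2 normalized counts) and Pdcd1lg2 (4.09 against 3.37), and sedentary tumours of week 12 for Ctla4 (7.85 against 6.28) and Cd274 (141 against 128). With all 12 tumours, neighbouring groups in that order overlapped except for Cd274 and Pdcd1lg2. For Cd274, sedentary tumours of week 12 lay above active tumours of week 18. The share of all genes apart between these 2 groups was not computed, so that gap is a description only. For Pdcd1lg2, sedentary tumours of week 12 (2 to 4 reads) lay above those of week 18 (0 to 2 reads). The nearest tumours of each again had 2 reads.

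Other genes of the checkpoint pathways were followed through 8 lists. No gene of any of these lists passed limma's threshold in any of the 5 comparisons. At week 12 all 10 other inhibitory receptors, such as Btla and Cd160, had estimates above 0, with a median of 0.51 on the log2 scale, and 0.15 without active replicate 3. All 9 costimulatory receptors, among them Cd28 and Icos, had estimates above 0, with a median of 1.37, and 0.19 without that tumour. The 13 other ligands of inhibitory receptors had 4 estimates above 0 and a median of -0.19, and -0.05 without it. The smallest p among them belonged to Vtcn1, which encodes the inhibitory ligand B7-H4, at -0.81 (SE 0.22, adjusted p = 0.733 by limma) and at -0.65 without that tumour. In active replicate 3 of week 12 all 9 costimulatory receptors were the highest of the 12 tumours, with a median of 22.7 times the others, while 2 of 13 other ligands were, with a median of 0.820 times.

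Regulatory T cell genes (Foxp3, Il2ra, Ikzf2, Ikzf4 and Ccr8) had a median of 0.63 at week 12, and -0.02 without active replicate 3. Foxp3, the defining transcription factor of these cells, had 241 normalized counts in that tumour and 0 to 25.3 in the others. The 11 genes of the interferon gamma pathway had a median of 0.25, and 0.08 without that tumour, and 7 of the 11 were highest in it. Their median in that tumour was 1.66 times the median of the others. The highest were the chemokine gene Cxcl9, at 5.88 times, and Ciita, the activator of MHC class II genes, at 4.87 times. The lowest was Ifngr2, at 0.782 times. Regulators of exhaustion had a median of 0.31 (0.18 without it), the downstream phosphatases and kinases 0.73 (0.04), and the 4 costimulatory ligands listed, of 6, 0.59 (0.16).

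At week 18 the lists gave medians from -0.34 for the other inhibitory receptors to 0.30 for the costimulatory ligands. Cd160, a receptor of natural killer and T cells for the ligand Tnfrsf14, had the smallest p of the inhibitory receptors in 3 comparisons. It stood at -1.04 (SE 0.38, adjusted p = 0.824 by limma) in active against sedentary tumours of week 18. Within active mice it stood at -2.18 (SE 0.63, adjusted p = 0.193 by limma) at week 18 against week 12. Its activity effect differed between weeks by -2.63 (SE 0.88, adjusted p = 0.655 by limma). Without active replicate 3 of week 12 these 2 values were -1.59 and -2.04. Prdm1, which encodes Blimp-1, was at -1.17 (SE 0.36, adjusted p = 0.824 by limma) and the costimulatory receptor Tnfrsf9 at 1.72 (SE 0.55, adjusted p = 0.824 by limma) in week 18.

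Genes most like each checkpoint gene were taken by Pearson correlation of log2(normalized count + 1) over the 11 tumours other than active replicate 3 of week 12, among 16462 genes. The tumours share the groups and the size factors, and the values are a description. Those named are the highest of 16462 over 11 tumours, so their size comes partly from that choice. The closest to Tigit were Cd28 (r = 0.972), Il2rb (0.952) and Nkg7 (0.948), genes of T and natural killer cells, at 0.857, 0.942 and 0.937 over all 12 tumours. The closest to Havcr2 were Itgal (0.930), BC028528 (0.923) and Serinc1 (0.918), and Itgal fell to 0.637 over 12. Those to Lag3 were Gm36445 (0.843), Dnm1l (0.838) and Gm37285 (0.818), and none of these 3 kept an r above 0.515 over 12 tumours. Those to Pdcd1 were Htr7 (0.932), Oxsm (0.929) and 4931406C07Rik (0.923). Those to Ctla4, which had 0 to 11 reads in these tumours, included Zfp239 (0.971) and Slc18b1 (0.954), but Zfp239 stood at -0.476 over 12 tumours.

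For the ligands, the closest to Cd86 were Nek7 (0.959), Map6 (0.953) and the myeloid and B cell transcription factor gene Irf8 (0.945). Irf8 kept 0.934 over all 12 tumours. The closest to Cd274 were Rasa4 (0.966), Tmem132c (0.963) and Ccdc69 (0.953), and Rasa4 and Ccdc69 stood at 0.978 and 0.982 over 12. The closest to Cd80 were 2510009E07Rik (0.962), Adtrp (0.945) and Hps5 (0.913). The closest to Pdcd1lg2, which had only 0 to 12 reads in the 11 tumours, were Tespa1 (0.900), Lgals8 (0.899) and Mx1 (0.898), with Tespa1 at 0.956 over 12. No gene was shared between these lists.

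In the authors' deposited table for week 12, 8 of the 9 genes had a larger log2 fold change than by limma, and Havcr2 a smaller one, at 0.33. There, Pdcd1lg2 was at 2.71, Ctla4 at 2.51, Cd274 at 1.29 and Lag3 at 1.23. With a pseudocount of 0.1 limma gave 1.40 for Pdcd1lg2, 1.14 for Ctla4 and 0.70 for Cd274. DESeq2 on the recovered reads gave 2.51, 2.42 and 1.29 for these genes. The cause of the gap was not tested. Of the 9, Lag3 had the smallest p-value in the authors' deposited table, 0.0441, and 1237 of the 19241 genes there had a p-value under 0.05. The adjusted p-values of the 9 genes ran from 0.743 to 0.921, so none was past 0.05. In the authors' deposited table for week 18 they ran from 0.879 to 1. The authors' deposited tables held 204 genes at week 12 and 41 at week 18 with an adjusted p-value under 0.05.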

How the data were processed

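RNA of mammary tumours was extracted with TRIzol and made into libraries with a stranded mRNA kit, per the labels' protocols. The submitters' processing notes name the mm10 build. The aligner, the counter and the annotation are not given in the sources used here. The 2 tumour tables hold a deposited normalized signal per gene and library. These values gave whole reads for 100% of entries in every library (tolerance 0.01 reads), and the authors' factors equalled median-of-ratios size factors over all 12 tumours, so both tables share 1 scale. The tables also hold the authors' log2 fold change, p-value, adjusted p-value and a test score; the deposited score was not used.

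limma 3.58.1 (R 4.3.3) was fitted to log2(value + 1) for each gene that averaged 1 or more in a group compared, with Benjamini-Hochberg adjustment and a threshold of 0.05. Fold changes are on that scale, on which low genes appear to change less than they do. The planned count test applied only to counts, so edgeR 4.0.16 and DESeq2 1.42.0 on recovered reads were alternatives, besides other filters, pseudocounts, scalings, a replicate block and each library left out. The main limma fits and the edgeR fits were tested on simulated counts, and the DESeq2 and block fits were not. Exon lengths and coordinates came from GENCODE M21 (GRCm38), whose exons of a gene were merged. Intervals of reads cover counting error only, since reads carried no molecular identifiers.

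The genes and lists were chosen with earlier results of these data known. Named list genes had the smallest p-value in a direction or were past the threshold, and the 3 most correlated genes were named for each checkpoint gene, except 1 gene that is not reported here. P-values measure the spread between the labelled biological replicates. The labels do not state pairs of tumours. Deviations of same-numbered tumours correlated at 0.192, 0.211 and 0.179 across 16462 genes at week 18, and at -0.0432, -0.118 and 0.135 at week 12. Differently numbered tumours reached 0.0386 at week 18 and 0.218 at week 12, so values of this size do not establish pairs. No library was left out of the main comparisons, and the libraries of hematopoietic stem cells were not analysed here.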

Additional observations from a re-analysis of the deposited data

How the results depend on the processing

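For the 9 genes in 5 comparisons, 762 alternative fits gave no adjusted p-value under 0.05; 6 by DESeq2 gave none. The smallest was 0.0637, by DESeq2 in active mice, against 0.210 by limma. Of the fits, 718 kept the direction and 44 turned it, 37 of these by leaving out 1 library. The others that turned were the difference between weeks of Pdcd1 by edgeR (0.0031) and, in sedentary mice, Tigit (0.0699 by edgeR, 0.0673 by DESeq2), Cd80 (0.0144, 0.0076) and Cd86 (0.0820, 0.0754).

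Leaving out each library in turn gave these ranges of log2 fold changes. For active mice across weeks every checkpoint gene is given, and elsewhere only those whose direction turned. The checkpoint genes not listed kept their direction. At week 12 Ctla4 spanned -0.23 to 1.78 and Cd274 -0.21 to 1.40. At week 18 Pdcd1 spanned -0.031 to 1.59, Ctla4 -1.58 to 0.072, Lag3 -0.36 to 0.031, Tigit -1.41 to 0.50, Cd274 -0.36 to 0.59, Pdcd1lg2 -0.13 to 1.64 and Cd86 -0.24 to 0.81. For the difference between weeks Pdcd1 spanned -0.83 to 0.79, Havcr2 -0.13 to 0.36, Cd274 -1.20 to 0.41, Pdcd1lg2 -1.39 to 0.70 and Cd86 -1.06 to 0.068. In sedentary mice across weeks Pdcd1 spanned -1.08 to 0.24, Ctla4 -0.54 to 0.28, Lag3 -0.11 to 0.28, Havcr2 -0.46 to 0.028, Tigit -0.73 to 0.28, Cd80 -0.32 to 0.26 and Cd86 -0.65 to 0.40. In active mice across weeks Pdcd1 spanned -1.30 to 0.32, Ctla4 -2.89 to -0.88, Lag3 -1.55 to -0.60, Havcr2 -0.19 to -0.01, Tigit -2.63 to -0.72, Cd274 -1.85 to -0.24, Pdcd1lg2 -2.55 to -0.46, Cd80 -2.68 to -1.47 and Cd86 -1.05 to -0.07.

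Counts over all genes moved more. Week 12 gave 208 genes by DESeq2, 9 with all 12 tumours in 1 fit and 9 to 71 with a library left out, against 99. Week 18 gave 5 with a pseudocount of 0.1, 1 without a filter, 52 by DESeq2 and 0 to 5 with a library left out, against 0. The difference between weeks gave 0 by edgeR (1604 at an unadjusted p under 0.05), 172 by DESeq2 and 0 to 23 with a library left out, against 2. Sedentary mice gave 0 by edgeR (651 unadjusted), 79 by DESeq2 and 1 to 9 with a library left out, against 1. Active mice gave 6 with a pseudocount of 0.1, 0 by edgeR (4279 unadjusted), 1681 by DESeq2 and 0 to 87 with a library left out, against 3. The cause was not tested.

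With the replicate number as a block, no call on the 9 genes changed. Over all genes the block gave 0 at week 12 (813 unadjusted), 0 at week 18, 69 for the difference between weeks and 0 in active mice (3238 unadjusted).

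Without division by exon length the mean log2 ratio of receptors to ligands was -0.67 in sedentary and -0.75 in active tumours of week 12, -0.45 in sedentary and -0.33 in active tumours of week 18. Per Cd3e alone, Tigit in active replicate 3 of week 12 was 14.9% of the median of the others, against 10.6% per CD3 sum. With 3 tumours a group and 0 to 12 reads of Pdcd1lg2 in 11 of them, small differences were not detectable at this depth.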

Other observations

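Cd80 and Cd86 did not keep 1 ratio across the tumours. Per kb, Cd80 stood at 0.0347 and 0.0626 of Cd86 in active replicates 1 and 2 of week 18, below the 0.156 to 0.324 of the other tumours, active replicate 3 of the same week included at 0.180. These 2 tumours held 4 and 10 reads of Cd80. The difference was not tested. In active replicate 3 of week 12 the ratio was 0.164, within the range of the others, although both genes were highest there.

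Pdcd1lg2 stood at 0.112 of Cd274 per kb in active replicate 3 of week 12 and at 0 to 0.169 in the other tumours, where the highest was active replicate 2 of week 18. That tumour was also the highest of all for Pdcd1.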
